A study of Rattus with 6 samples.

Results

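The TRIM family was taken as the protein-coding genes whose symbol begins with Trim followed by a number. It held 52 genes of 21378 in the count table, of which 17088 were protein-coding, and 39 of the 52 had enough reads to be tested. TRIM proteins are built from a RING domain, B-box zinc fingers and a coiled coil, followed by a C-terminal domain that differs between classes. The RING domain recruits a ubiquitin-charged E2 enzyme, so that most of the proteins act as ubiquitin ligases, and the C-terminal domain, often a PRY-SPRY domain, helps to choose the target. Part of the family is induced by interferon and takes part in antiviral defence, while other members act in transcription, on the cytoskeleton or in muscle.

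Messenger RNA was sequenced from purchased rat cardiac fibroblasts, which deposit and remodel the matrix of the heart. There were 3 libraries titled siNONO, from cells transfected with an siRNA against Nono by lipofection, and 3 titled siCtrl. Nono encodes a paraspeckle protein that binds both RNA and DNA, and the series asks how gene expression differs after its knockdown. The controls are siCtrl by title but are described elsewhere in the labels as given an empty vector, and their exact treatment is not settled here. Harvest at 48 h is stated for RT-qPCR and western blots, and no time is stated for the sequenced cells. No label says that the replicates were separate cultures, so the spread behind each p-value is that of these samples alone and may be technical.

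Total counts ranged from 29692746 to 33365588 in siNONO libraries and from 27792357 to 32869992 in siCtrl libraries. Nono itself stood at 69.9, 76.1 and 73.6 CPM in siNONO replicates 1, 2 and 3, against 237, 233 and 247 CPM in siCtrl replicates 1, 2 and 3. CPM relate counts to library size, scaled here by TMM factors. The fibroblast label was met by abundant Col1a1 (14760 ± 201 CPM in siNONO and 15859 ± 560 CPM in siCtrl, SD, n = 3 each) and Pdgfra (651 ± 16.8 CPM in siNONO and 623 ± 6.08 CPM in siCtrl). Of the 6 cardiomyocyte markers in the table, Tnnt2 was well detected, at 112 ± 4.55 CPM in siNONO and 152 ± 8.38 CPM in siCtrl, Pln averaged 1.82 CPM in siNONO and 2.33 CPM in siCtrl, Tnni3 0.274 CPM in siNONO and 0.391 CPM in siCtrl, and Myh6, Ryr2 and Actc1 were below 0.1 CPM on average in both groups. Of 12 fibroblast markers 1 was raised (8.33%) and 5 lowered (41.7%), where 16.2% of all genes tested were raised and 15.9% lowered. The largest fall was that of Lum, at 18.9 ± 0.873 CPM in siNONO and 35.6 ± 2.40 CPM in siCtrl. Postn followed, at 837 ± 25.7 CPM in siNONO and 1304 ± 83.5 CPM in siCtrl. The fibroblast markers summed to 35035 to 35930 CPM in siNONO and 36312 to 39041 CPM in siCtrl. Of 5 tested smooth muscle and pericyte markers 0 were raised and 3 lowered (60.0%). The smooth muscle and pericyte markers summed to 62.2 to 67.4 CPM in siNONO and 73.3 to 84.2 CPM in siCtrl. In bulk RNA, fewer cells of a type and less RNA per cell cannot be told apart, and the part of these markers in the TRIM levels was not tested.

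Several interferon-induced TRIM genes were higher after knockdown, led by Trim30 at 2.04-fold and Trim21 at 1.88-fold, while the most abundant member, Trim28, was at 0.994 of its control level. Of the 39 members tested, 10 were raised and 3 were lowered at a Benjamini-Hochberg adjusted p under 0.05 in the quasi-likelihood test of edgeR. Among all 14412 genes tested 16.2% were raised, 15.9% lowered and 32.1% called in either direction, and among the tested members 25.6% were raised and 7.69% lowered. The libraries of the groups did not overlap in CPM for 15 members that were higher in siNONO and 4 that were lower, 19 of 39, where 22.9% of all genes were higher, 22.1% lower and 45.0% apart in either direction. With scaling by total library size the split was 14 raised to 1 lowered, and with log2(FPKM + 1) 12 to 0. Calls among all 14412 genes also shifted towards raised ones in both settings. With TMM scaling 2338 were raised and 2292 lowered, with total library size 3174 and 1673, and with log2(FPKM + 1) 2829 and 1546. Without siCtrl replicate 3, and likewise without siNONO replicate 3, the number of members raised was 6. Of all genes tested in these fits, 13.0% and 11.8% were raised. The number of members lowered was 1 without siCtrl replicate 2 and 1 without siNONO replicate 2, where 14.2% and 14.5% of all genes were lowered. At least 1.5-fold higher and past the threshold were 4 members, Trim30, Trim21, Trim15 and Trim25, where 2.86% of all genes met both limits. The median log2 fold change (siNONO over siCtrl) was 0.11 for the tested members and 0.00 for all genes tested. All 6 libraries lay above the count filter for 38 of the 39. The exception, Trim29, passed it only through the siCtrl libraries, where it was higher. Trim29 is 1 of the 4 members that were lower without overlap, so its place in that count is not independent support.

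**Figure D1:**
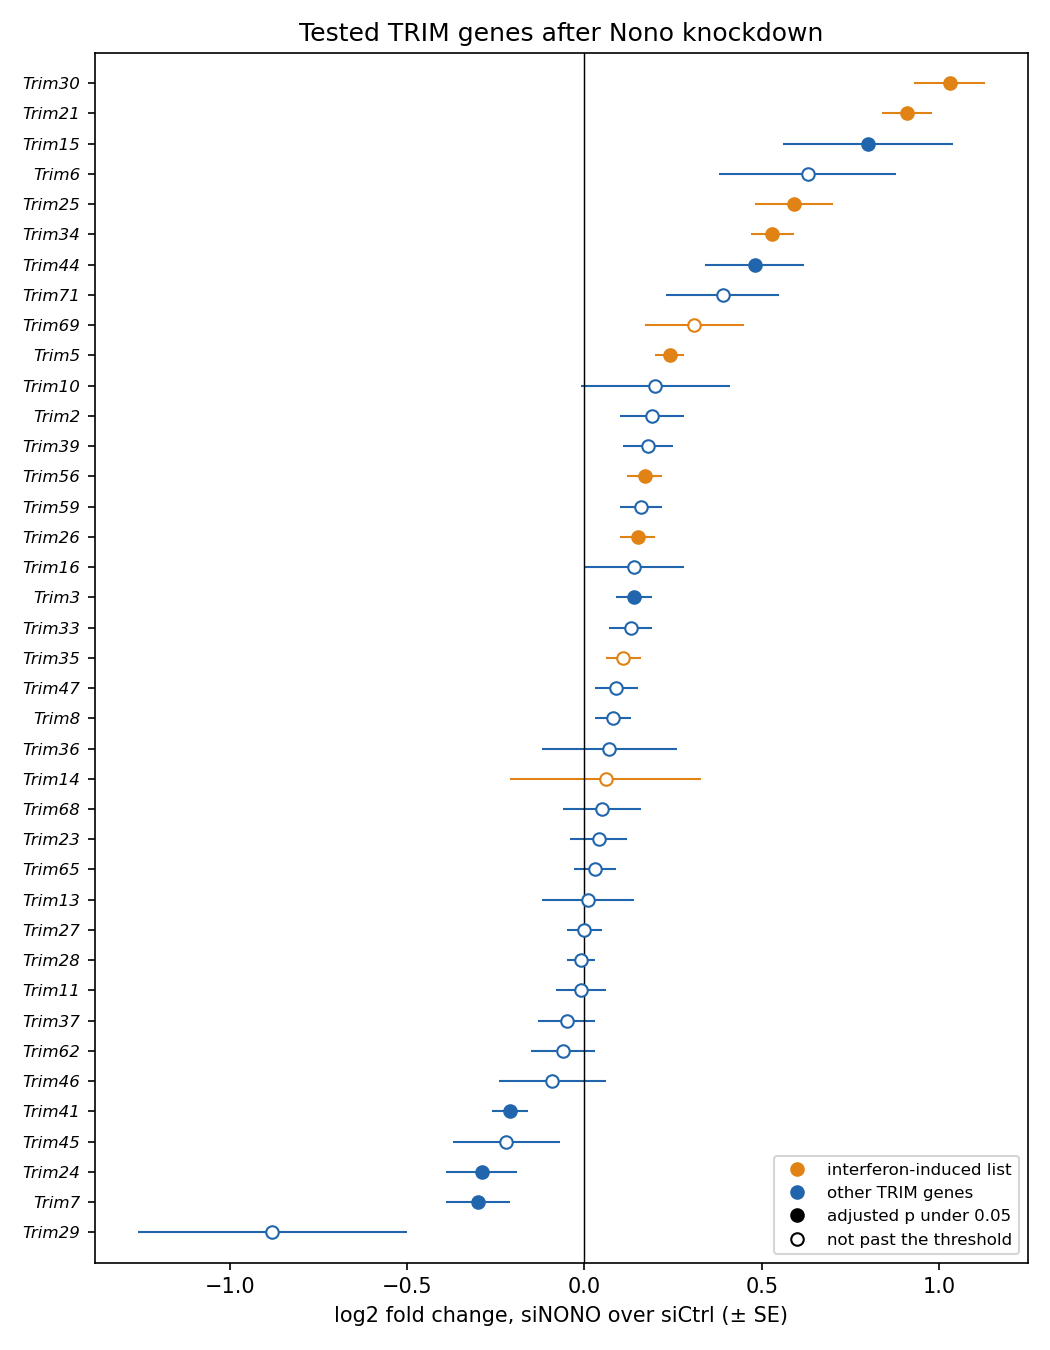
Log2 fold change (siNONO over siCtrl, ± SE) on the horizontal axis for each of the 39 tested TRIM genes, ordered by size; filled points had an adjusted p under 0.05 and orange points belong to the interferon-induced list. The orange points all lie above 0, from 0.06 for Trim14 to 1.03 for Trim30, and the lowered genes Trim41, Trim24 and Trim7 lie between -0.21 and -0.30.

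CPM do not correct for gene length, so levels were compared between members in FPKM, the authors' values per length and library size. In siCtrl libraries 9 of the 50 members with an FPKM value averaged at least 10 FPKM, 18 lay between 1 and 10, and 23 were below 1. Trim28 had the highest level, at 43.3, 44.2 and 45.1 FPKM in siNONO replicates 1, 2 and 3 and 42.8, 41.9 and 44.1 FPKM in siCtrl replicates 1, 2 and 3. Its groups overlapped. Trim28 encodes KAP1, a corepressor that is recruited by KRAB zinc finger proteins, and its log2 fold change was -0.01 ± 0.04 (SE; edgeR adjusted p = 0.903). Trim47 followed at 35.2, 36.4 and 36.4 FPKM in siNONO and 35.5, 30.6 and 32.2 FPKM in siCtrl, also with overlap. The fitted change was 0.09 ± 0.06 (edgeR adjusted p = 0.278), but without siCtrl replicate 1 it was called, at 0.16 (adjusted p = 0.0152). Trim5, whose primate counterpart restricts retroviruses by binding their capsid, came next at 27.8, 26.4 and 27.1 FPKM in siNONO and 22.1, 22.8 and 21.8 FPKM in siCtrl. Its groups did not overlap. After these came Trim35, Trim8, Trim27, Trim3, Trim26 and Trim41, with means between 9.71 and 21.1 FPKM in siNONO and between 10.9 and 18.9 FPKM in siCtrl.

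**Figure D2:**
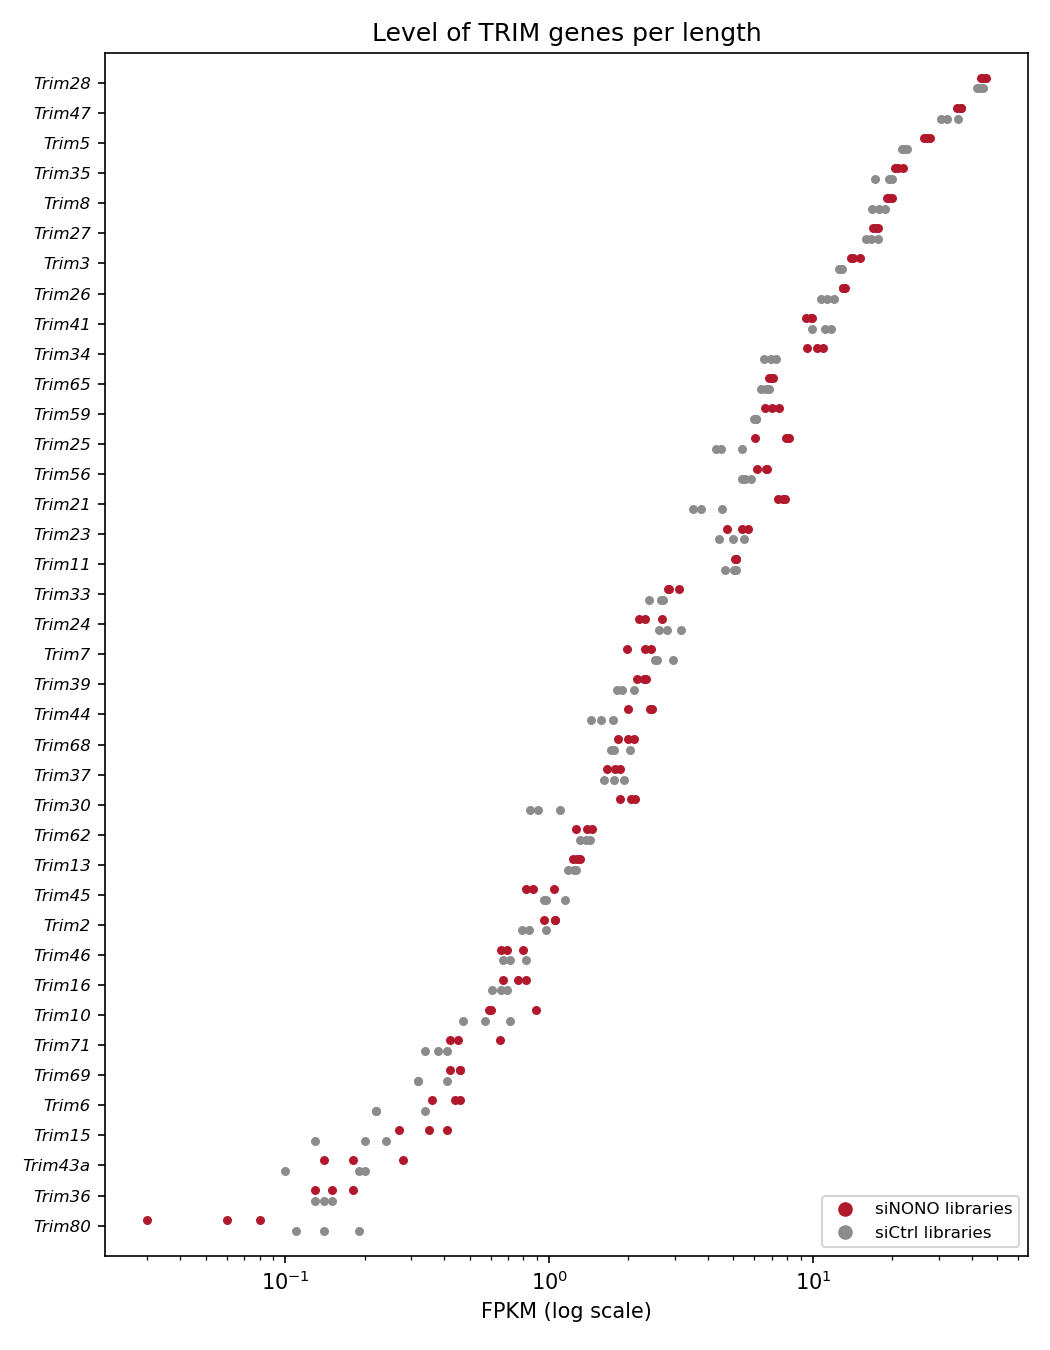
FPKM on a log axis for the 39 TRIM genes with a mean of at least 0.1 FPKM over all libraries, with siNONO libraries (red) drawn above siCtrl libraries (grey) in each line and 1 point per library. The group means run from 44.2 FPKM for Trim28 in siNONO to 0.0567 FPKM for Trim80 in siNONO, and single libraries from 45.1 to 0.03 FPKM for the same genes. The red points of Trim30 and Trim21 stand clear of the grey ones.

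The interferon-induced TRIM genes were described from a list of 17 genes known from rodent or human cells, of which 12 were in the table and 10 were tested. Of these 10, 7 were raised and 0 lowered, against 16.2% raised among all genes. All 10 log2 fold changes were above 0, with a median of 0.27. Without siCtrl replicate 1 the median was 0.34 and 8 were raised, where 15.3% of all genes were raised. With siCtrl replicate 3, siNONO replicate 1 or siNONO replicate 3 left out, 5 were raised. Of all genes, 13.0%, 11.4% and 11.8% were raised in those fits. The list was composed with earlier results of these data known, among them that interferon-induced genes as a group were higher, so its direction is not independent evidence. The 29 tested members outside the list had a median of 0.05 and included 3 raised and 3 lowered genes. That is 10.3% each way, below the 16.2% raised and 15.9% lowered among all genes.

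Trim30 had the largest fold change of the tested members. In mouse its counterpart restrains NF-kB signalling downstream of Toll-like receptors. It was at 14.6, 13.0 and 14.2 CPM in siNONO replicates 1, 2 and 3, against 6.66, 7.81 and 6.11 CPM in siCtrl replicates 1, 2 and 3. The lowest siNONO library was thus well above the highest control. The log2 fold change was 1.03 ± 0.10 (SE; edgeR adjusted p = 2.77e-06).

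Trim21 encodes a cytosolic receptor for antibodies that directs antibody-coated virus to the proteasome. It stood at 35.1, 33.6 and 34.6 CPM in siNONO, against 17.8, 21.0 and 16.3 CPM in siCtrl (0.91 ± 0.07; edgeR adjusted p = 9.17e-07). The siNONO libraries lay close together, and the spread was wider among the controls (SD 0.756 CPM in siNONO and 2.40 CPM in siCtrl).

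Trim25 encodes a ligase that attaches ubiquitin in the activation of the RNA sensor RIG-I. Its values were 21.5, 16.1 and 21.0 CPM in siNONO, against 12.5, 14.6 and 11.8 CPM in siCtrl, and it rose by 0.59 ± 0.11 on the log2 scale (edgeR adjusted p = 0.000820). The groups did not overlap, although siNONO replicate 2 was nearer to the controls than to the other siNONO libraries. Trim34, a close relative and neighbour of Trim5, was at 49.1, 43.2 and 46.7 CPM in siNONO and 32.8, 33.3 and 30.3 CPM in siCtrl, without overlap (0.53 ± 0.06; edgeR adjusted p = 1.03e-05). Trim5 changed less (0.24 ± 0.04; edgeR adjusted p = 0.000759), with 78.3 ± 1.67 CPM in siNONO and 66.5 ± 1.36 CPM in siCtrl (SD, n = 3 each).

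Trim30, Trim21, Trim25, Trim34 and Trim5 were called in each of the 18 alternative settings. The other raised members of the list changed little and their calls were less firm. Trim56, a ligase of the cytosolic DNA-sensing pathway, averaged 70.1 ± 2.97 CPM in siNONO and 62.4 ± 2.28 CPM in siCtrl (0.17 ± 0.05; edgeR adjusted p = 0.0158). Trim26, which acts in interferon and NF-kB signalling, averaged 69.1 ± 0.420 CPM in siNONO and 62.3 ± 3.28 CPM in siCtrl (0.15 ± 0.05; edgeR adjusted p = 0.0252). Both lost the call without siCtrl replicate 3 (adjusted p = 0.0758 for Trim56 and 0.127 for Trim26), without siNONO replicate 1 (0.0869 and 0.0950) and without siNONO replicate 3 (0.0739 and 0.0686). Trim26 also lost it without siNONO replicate 2 (0.0595) and with the replicate number as a block (0.0568).

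The members of the list that did not pass were Trim35 (0.11 ± 0.05), Trim69 (0.31 ± 0.14) and Trim14 (0.06 ± 0.27), which had under 1 CPM on average in both groups. Trim69 was called without siCtrl replicate 1 (0.44; adjusted p = 0.0287) and Trim35 with total library size (0.16; 0.0391). Trim30c and Trim38 had at most 5 counts in any library and were not tested.

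**Figure D3:**
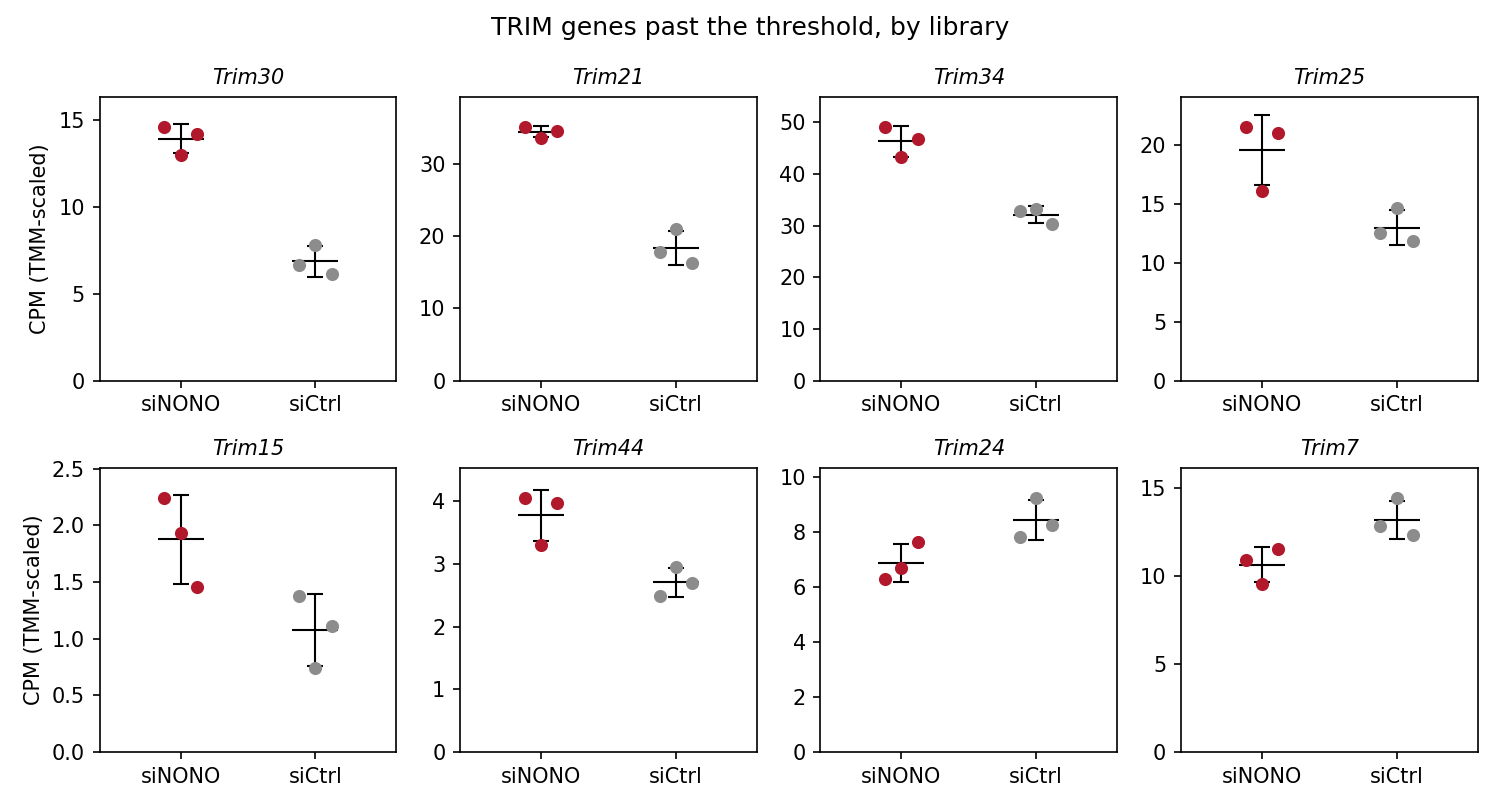
CPM in each of the 3 siNONO (red) and 3 siCtrl (grey) libraries for the 8 TRIM genes past the threshold with a mean of at least 1 CPM and an absolute log2 fold change of at least 0.25; horizontal bars are means and error bars SD, and each vertical axis starts at 0. In each panel the groups do not overlap, with a narrow gap for Trim15 (1.46 CPM in the lowest siNONO library and 1.38 CPM in the highest control) and for Trim24.

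Summed over the family, TRIM reads made up 1097, 1072 and 1106 CPM in siNONO replicates 1, 2 and 3 and 1000, 1006 and 998 CPM in siCtrl replicates 1, 2 and 3. The 12 genes of the interferon-induced list contributed 435, 407 and 424 CPM in siNONO and 341, 360 and 333 CPM in siCtrl. The groups were apart in both sums. The 40 genes outside the list summed to 662, 665 and 682 CPM in siNONO and 659, 646 and 664 CPM in siCtrl, with overlap. The PRY-SPRY class was split by the same list. Of 8 tested PRY-SPRY genes in the interferon-induced list 6 were raised and 0 lowered, with a median log2 fold change of 0.42. Of 12 outside it 1 was raised and 2 lowered, with a median of 0.04. The shares among all genes tested were 16.2% raised and 15.9% lowered. The 6 raised genes were already counted above with the list, which was composed with earlier results of these data known. This split is therefore not independent evidence.

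Genes that carry the interferon signal to such promoters were higher as well. Of 12 tested receptor chains, Janus kinases, STAT proteins and interferon regulatory factors, 10 were raised and 0 lowered, or 83.3% raised against 16.2% of all genes, of which 15.9% were lowered. Stat2 (0.53 ± 0.08; edgeR adjusted p = 0.000132) and Irf9 (0.53 ± 0.07; 7.86e-05), which act together in a DNA-binding complex, rose most. Irf9 was at 92.5, 96.7 and 93.9 CPM in siNONO replicates 1, 2 and 3 and at 73.5, 66.9 and 56.4 CPM in siCtrl replicates 1, 2 and 3, without overlap. Among the controls the first was the highest for Irf9, and siCtrl replicate 2 was the highest for Trim21, Trim25, Trim30 and Trim34, but the list did not share 1 order, since Jak2 and Tyk2 also had their highest control value in siCtrl replicate 2.

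Among 18 signalling partners of TRIM ligases in the RIG-I and STING pathways, 7 were raised, or 38.9% against 16.2% of all genes, and 2 lowered, or 11.1% against 15.9%. The transcription factor gene Irf7 (1.30 ± 0.17; edgeR adjusted p = 5.11e-05) and the RIG-I relative Dhx58 (1.23 ± 0.09; 3.17e-07) rose most. Irf7 averaged 451 ± 20.8 CPM in siNONO and 183 ± 66.7 CPM in siCtrl. Its controls spread widely, from 124 to 256 CPM, so the size of its rise is imprecise. Tab2, an adaptor of the kinase TAK1, fell most, to 53.4 ± 0.272 CPM in siNONO, against 72.7 ± 1.24 CPM in siCtrl (-0.45 ± 0.04; edgeR adjusted p = 2.78e-06). Map3k7, the gene of TAK1 itself, was the other one that fell (-0.19 ± 0.04; edgeR adjusted p = 0.00444). It did not pass with log2(FPKM + 1) (adjusted p = 0.0692).

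Markers of macrophages and other leukocytes, cells that also express many interferon-induced genes, were present. Of 8 such genes 0 were raised and 3 lowered (37.5%), where 16.2% of all genes tested were raised and 15.9% lowered. Of the 8, 0 were at 0 counts, and their summed level was 375 to 399 CPM in siNONO and 400 to 444 CPM in siCtrl. Endothelial markers summed to 19.6 to 20.9 CPM in siNONO and 17.5 to 18.7 CPM in siCtrl, with 1 of 5 tested raised (Tek, 0.24 ± 0.07; edgeR adjusted p = 0.0250) and 0 lowered. Tek lost its call with the DESeq2 Wald test (0.0513) and without siCtrl replicate 1 (0.0660), siCtrl replicate 3 (0.10), siNONO replicate 1 (0.0882), siNONO replicate 2 (0.0582) or siNONO replicate 3 (0.0512). The part of these cells in the TRIM levels was not tested.

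Outside the interferon-induced list the raised members were Trim15, Trim44 and Trim3. Trim15, a PRY-SPRY protein found at focal adhesions in human cells, had low values of 2.24, 1.93 and 1.46 CPM in siNONO, against 1.38, 0.739 and 1.11 CPM in siCtrl (0.80 ± 0.24; edgeR adjusted p = 0.0224). The groups nearly touched. The call ended without siCtrl replicate 2 (adjusted p = 0.0890), siCtrl replicate 3 (0.0519), siNONO replicate 1 (0.104) or siNONO replicate 2 (0.0574). Trim44, an unusual member that lacks a RING domain and carries a deubiquitinase-type zinc finger, was at 4.05, 3.31 and 3.98 CPM in siNONO and 2.49, 2.95 and 2.69 CPM in siCtrl, without overlap (0.48 ± 0.14; edgeR adjusted p = 0.0194). It lost the call without siCtrl replicate 1 (adjusted p = 0.0555), siCtrl replicate 3 (0.0551), siNONO replicate 1 (0.0784) or siNONO replicate 3 (0.0737). Trim3, an NHL-repeat protein best known from neurons, averaged 45.8 ± 1.77 CPM in siNONO and 41.6 ± 0.564 CPM in siCtrl (0.14 ± 0.05; edgeR adjusted p = 0.0347). That call ended without siCtrl replicate 2 (0.0881), siCtrl replicate 3 (0.0684), siNONO replicate 1 (0.0727) or siNONO replicate 3 (0.167), with the DESeq2 Wald test (0.0995) and with the replicate number as a block (0.0763).

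Lowered were Trim7, Trim24 and Trim41, with log2 fold changes between -0.30 and -0.21. Trim7, a ligase that binds glycogenin, was at 10.9, 9.51 and 11.5 CPM in siNONO and 12.8, 14.4 and 12.3 CPM in siCtrl (-0.30 ± 0.09; edgeR adjusted p = 0.0185). Trim24, a chromatin reader and nuclear receptor cofactor, was at 6.29, 6.68 and 7.62 CPM in siNONO and 7.82, 9.22 and 8.24 CPM in siCtrl (-0.29 ± 0.10; edgeR adjusted p = 0.0402). For both genes siCtrl replicate 2 was the highest library and the groups did not overlap. Trim41, a PRY-SPRY ligase, averaged 40.1 ± 0.775 CPM in siNONO and 46.5 ± 3.21 CPM in siCtrl (-0.21 ± 0.05; edgeR adjusted p = 0.00747) and kept its call without any single library. Leaving out siCtrl replicate 2 (adjusted p = 0.0790) or siNONO replicate 2 (0.0735) ended the call of Trim7. The call of Trim24 ended without siCtrl replicate 2 (0.148), siCtrl replicate 3 (0.0703), siNONO replicate 1 (0.148) or siNONO replicate 2 (0.0969), with the DESeq2 Wald test (0.0646) and with the replicate number as a block (0.0586). None of Trim7, Trim24 and Trim41 passed with log2(FPKM + 1) (adjusted p = 0.0942, 0.104 and 0.0935), and with total library size Trim7 (0.0526) and Trim24 (0.0927) did not.

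The remaining 26 tested members did not pass, with log2 fold changes from -0.88 (Trim29) to 0.63 (Trim6), and 14 of them lay within 0.1 of 0. Trim33, a relative of Trim24 and Trim28 that acts with SMAD proteins, had 0.13 ± 0.06, and the ligase gene Trim8, a regulator of cytokine signalling, 0.08 ± 0.05. Trim59, a membrane-anchored ligase, had 0.16 ± 0.06 (edgeR adjusted p = 0.0568) and was called with total library size (0.21; adjusted p = 0.0165), with log2(FPKM + 1) (0.18; 0.0324) and without siNONO replicate 1 (0.20; 0.0373). Total library size also brought calls for Trim33 (0.18; adjusted p = 0.0479) and Trim39 (0.23; 0.0273). Leaving out 1 library brought calls for Trim2 (0.28 without siCtrl replicate 3; adjusted p = 0.0394), Trim39 (0.24 without siCtrl replicate 2; 0.0351), Trim6 (0.86 without siCtrl replicate 2; 0.0360) and Trim71 (0.50 without siNONO replicate 1; 0.0497). Standard errors of the tested members ranged from 0.04 to 0.38, so changes of the size seen for Trim3 or Trim56 could not be resolved in members of low count.

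The 13 untested members had at most 14 counts in any library. Among them were Trim54, Trim55 and Trim63, the muscle RING-finger genes of the contractile apparatus, and Trim72, a membrane repair gene of striated muscle. Summed cardiomyocyte markers stood at 109 to 118 CPM in siNONO and 145 to 162 CPM in siCtrl. Of 3 tested, 1 was lowered (33.3%, against 15.9% of all genes tested) and 0 raised. The lowered gene, Tnnt2, made up nearly all of the sum, averaging 112 CPM in siNONO and 152 CPM in siCtrl. Trim63 had 4, 3 and 8 counts in siNONO and 6, 7 and 7 counts in siCtrl, and Trim72 had 6, 8 and 12 counts in siNONO and 2, 4 and 6 counts in siCtrl. With no filter on low counts neither passed, at -0.56 ± 0.61 for Trim63 (edgeR adjusted p = 0.586) and 0.94 ± 0.60 for Trim72 (0.297), errors too wide to tell the groups apart at this depth. Trim80 had 5, 4 and 2 counts in siNONO and 7, 9 and 14 counts in siCtrl. It was tested in 3 alternatives and was lowered in each, with no filter (-1.56 ± 0.59; edgeR adjusted p = 0.0363), without siCtrl replicate 1 (-1.71 ± 0.53; 0.0222) and without siNONO replicate 1 (-1.89 ± 0.57; 0.0298). In the fits without 1 library it passed the filter only through siCtrl libraries, where it was higher. Those calls are therefore not independent support, and all of them rest on few reads. Trim9, Trim17, Trim43a, Trim52, Trim58 and Trim66 were the rest of this group.

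Several members are neighbours on the chromosome. By symbol, 51 of the 52 were found in the RefSeq gene table of assembly GRCr8, which was used for gene order alone because the files were made with mRatBN7.2; Trim30 was not matched. On chromosome 1, Trim6, Trim34, Trim5 and Trim30c follow each other with 0 protein-coding genes between them. Trim34 and Trim5 were raised and Trim6 was not called, at 1.14 ± 0.126 CPM in siNONO and 0.733 ± 0.188 CPM in siCtrl (0.63 ± 0.25; edgeR adjusted p = 0.0685). Trim21 and Trim68 lie on the same chromosome with 8 genes between them, and Trim68 had 0.05 ± 0.11 (edgeR adjusted p = 0.754). On chromosome 10 the adjacent Trim41 and Trim7 were both lowered, whereas the adjacent Trim47 and Trim65 (0.03 ± 0.06) did not pass. On chromosome 20, Trim10, Trim15 and Trim26 are adjacent, and Trim15 and Trim26 were raised while Trim10 was not called (0.20 ± 0.21; edgeR adjusted p = 0.505). Trim5, Trim6, Trim30, Trim30c and Trim34 are related copies and the use of strand in counting is not given in the sources used here, so how reads were split between such copies or between overlapping neighbours is uncertain.

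**Figure D4:**
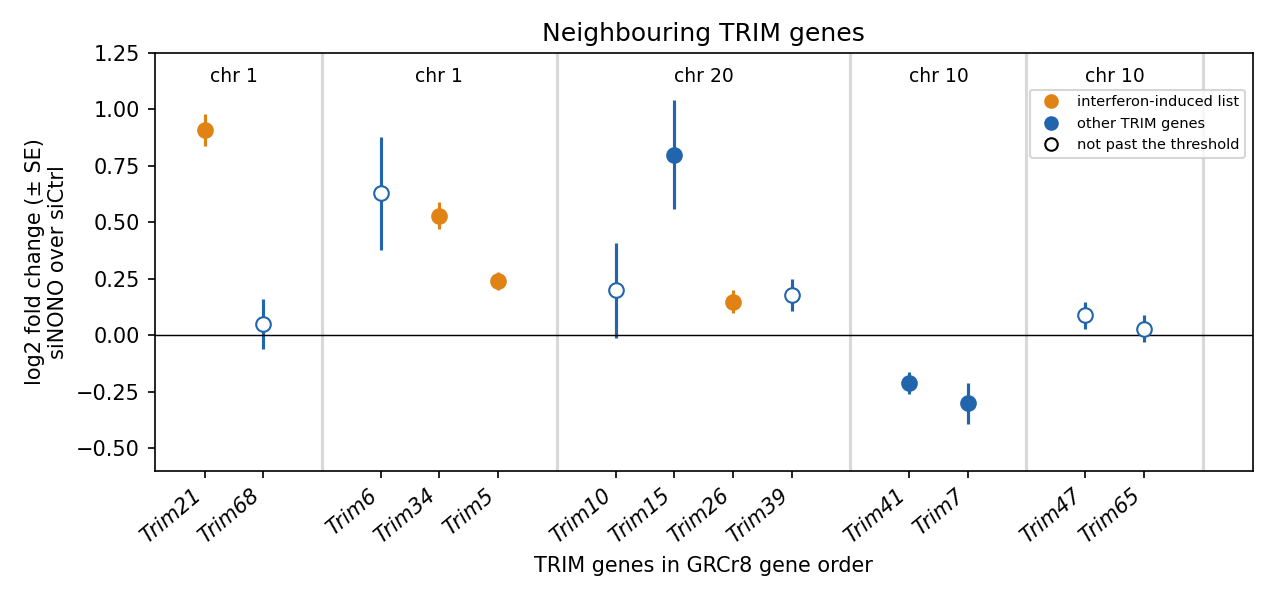
Log2 fold change (siNONO over siCtrl, ± SE) of tested TRIM genes that lie near each other, in GRCr8 gene order within 5 groups separated by grey lines; filled points had an adjusted p under 0.05 and orange points belong to the interferon-induced list. Trim21 at 0.91 stands beside Trim68 at 0.05, and Trim41 and Trim7 are the neighbours that lie below 0.

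TRIM proteins whose genes carry other names moved in both directions. Pml, the scaffold protein of PML nuclear bodies and itself induced by interferon, was at 87.6, 85.8 and 90.0 CPM in siNONO and 70.7, 63.8 and 57.4 CPM in siCtrl, without overlap (0.46 ± 0.06; edgeR adjusted p = 7.56e-05). Mid1, a microtubule-associated ligase, fell to 10.7, 9.66 and 10.1 CPM in siNONO, against 14.0, 14.4 and 14.4 CPM in siCtrl (-0.49 ± 0.07; edgeR adjusted p = 0.000145). Its paralog Mid2 had -0.13 ± 0.10 and did not pass, and Mefv had too few reads to be tested.

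E2 enzymes that work with TRIM ligases showed 2 raised and 2 lowered of 11, or 18.2% each way, near the 16.2% and 15.9% of all genes. Ube2l6, which also conjugates ISG15, had 0.30 ± 0.07 (edgeR adjusted p = 0.00509) and Ube2v1, the partner of Ube2n, 0.21 ± 0.05 (0.00873). Ube2w, which ubiquitinates protein N-termini, fell most (-0.23 ± 0.05; edgeR adjusted p = 0.00165). Without siCtrl replicate 1, 4 were raised, where 15.3% of all genes were raised.

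Of 13 partners of TRIM28 in gene silencing 4 were raised, or 30.8% against 16.2% of all genes, and 0 were lowered, against 15.9%. Their median log2 fold change was 0.12. Among the raised genes were Hdac1 (0.22 ± 0.04; edgeR adjusted p = 0.000775) and Hdac2 (0.18 ± 0.04; 0.00409), which encode histone deacetylases. The number raised depended on scaling, with 10 raised under total library size and 8 with log2(FPKM + 1). Among all 14412 genes the number raised was higher too, at 3174 and 2829 in these settings against 2338 with TMM scaling. The number of TRIM28 partners raised was 2 without siCtrl replicate 3 and 2 without siNONO replicate 1. Of all genes, 13.0% and 11.4% were raised in those fits.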

How the data were processed

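Poly(A)-selected RNA was made into libraries with a stranded kit, per the labels' protocols. The tools HISAT2 and edgeR and the build mRatBN7.2 are named, without versions, per the submitters' processing notes. How reads were counted, and whether by strand, is not given in the sources used here. The deposited count table held raw read counts, whole numbers for 21378 genes, and the deposited FPKM table held values the authors scaled by length and library size for 21081 genes. Neither had columns of other samples.

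The counts were tested with edgeR 4.0.16 under R 4.3.3 (filterByExpr, TMM, quasi-likelihood test, two-sided, 4 residual degrees of freedom, Benjamini-Hochberg over 14412 genes, threshold 0.05) on 3 siNONO and 3 siCtrl libraries grouped by title. The common biological coefficient of variation was 4.82%. Standard errors are the absolute log2 fold change over the root of the F statistic. A count of 0 allows up to 3 counts, or 0.0879 to 0.112 CPM per library, for counting error only. Libraries of a group differed by more than sampling noise (chi-square per degree of freedom 3.18 to 7.58).

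Members and lists were chosen with earlier results of these data known. Values of each library were given for members past the threshold with a mean of at least 1 CPM and an absolute log2 fold change of at least 0.25 and for the 3 of highest FPKM; from other lists, up to 2 members with the largest rise and 2 with the largest fall. Genes singled out beyond this (Trim5 in CPM, Trim56, Trim26, Trim3, Trim41, Trim80, Trim63, Trim72, Pml and Mid1 by library, and members named with a fold change alone) were chosen after their values were seen. Some further genes, of the name pattern and of the lists, are not reported here. Alternatives were other scalings, filters and thresholds, DESeq2 1.42.0, limma 3.58.1 (voom, and limma-trend on log2(FPKM + 1) or log2(FPKM + 0.1)), robust fits, a replicate block and the omission of 1 library at a time. Each script for a fit was tested on simulated data beforehand. Figures used matplotlib 3.10.9 under Python 3.11.15.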

Additional observations from a re-analysis of the deposited data

How the results depend on the processing

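Of the results of single tested members under 18 alternatives, 620 kept their direction and side of the threshold or were never called, 48 were no longer past the threshold, 17 newly passed it, and 0 called ones reversed. The causes were not tested. The replicate numbers did not pair the samples (correlation of deviations -0.0472, -0.0861 and -0.00683 for replicates 1, 2 and 3), and with the replicate block 8 TRIM genes were raised and 2 lowered, against 10 and 3. Raised TRIM genes numbered 5 at a threshold of 0.01 and 6 to 11 without 1 library. Of all genes tested, 13.1% were raised with the replicate block, 9.91% at a threshold of 0.01 and 11.4% to 15.3% without 1 library, against 16.2%. Lowered TRIM genes numbered 1 with total library size and 0 with log2(FPKM + 1), with log2(FPKM + 0.1) and with at least 1 FPKM in 3 libraries. They numbered 1 at a threshold of 0.01 and 1 to 4 without 1 library. Of all genes tested, 12.9% were lowered with the replicate block and 11.6% with total library size, against 15.9%. The share was 10.7% to 12.8% in the FPKM fits, 9.88% at a threshold of 0.01 and 11.6% to 14.6% without 1 library. The family median was 0.16 with total library size and with log2(FPKM + 0.1), and 0.07 to 0.13 without 1 library. The median of the interferon-induced list was 0.32 with total library size, 0.31 with CPM of at least 1 in 3 libraries, 0.23 with log2(FPKM + 1), 0.39 with at least 1 FPKM in 3 libraries and 0.23 to 0.34 without 1 library. PRY-SPRY genes lowered numbered 2, but 1 with total library size and at a threshold of 0.01, 0 in the FPKM fits and 1 to 2 without 1 library. E2 enzymes raised were 4 with total library size, 5 in each FPKM fit and 2 to 4 without 1 library. RIG-I and STING partners lowered were 1 in each FPKM fit. TRIM28 partners raised were 10 with total library size, 8 with log2(FPKM + 1), 9 in the other FPKM fits, 2 at a threshold of 0.01 and 2 to 6 without 1 library. With total library size the median log2 fold change of all genes was 0.05. More of all genes were raised and fewer lowered than with TMM scaling, as was also the case with log2(FPKM + 1). Members under about 1 CPM could be compared only coarsely at this depth.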
